A study of Homo sapiens with 4 samples.

Results

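The transforming growth factor beta (TGF-β) ligands, their receptors, the co-receptor endoglin and the proteins that hold the latent ligand were followed through hematopoietic differentiation of human pluripotent stem cells. The set was chosen by name and held 10 genes: the ligands TGFB1, TGFB2 and TGFB3, the receptors TGFBR1, TGFBR2 and ACVRL1, the co-receptors ENG and TGFBR3, and the binding proteins LTBP1 and LTBP2. All 10 were found among the 58274 gene identifiers of the expression table. Of these identifiers, 17137 reached at least 1 FPKM (fragments per kilobase of transcript and per unit of sequencing depth) in at least 1 library, and 9 of the 10 genes were among them. TGFB2 stayed below that level in every library.

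RNA was sequenced from the human line BC1, which is made of induced pluripotent stem cells, and from 3 populations derived from it in culture. The line was differentiated with activin A and BMP4 for 2 days and then with VEGF and bFGF for 6 days. The APLNR+ library holds mesoderm cells of day 2. Day 5 gave the CD31+CD34+ library of hemogenic endothelial progenitors, called HEPs, and day 8 the CD43+ library of hematopoietic progenitor cells, called HPCs. Activin A and BMP4, both ligands of the TGF-β superfamily, had thus been given before every derived population was collected. All 4 libraries come from this single cell line, and each population had 1 library. Differences below are therefore differences between libraries. They carry 95% Clopper-Pearson intervals that cover counting error only, and no test between populations was possible.

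TGF-β is secreted as an inactive dimer. Its propeptide, and the latent TGF-β binding proteins that anchor the propeptide to the extracellular matrix, keep the ligand from the receptors until integrins, proteases or thrombospondin release it. The free ligand binds the type II receptor TGFBR2, which recruits a type I receptor. TGFBR1 (ALK5) is found in most cells and acts on SMAD2 and SMAD3, while ACVRL1 (ALK1) is best known from endothelium and acts on SMAD1 and SMAD5. Endoglin and betaglycan (TGFBR3) are co-receptors without a kinase, and loss of ENG or of ACVRL1 causes hereditary hemorrhagic telangiectasia, a disease of blood vessels.

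The depth of the libraries, read from the steps between low values, was between 19600000 and 23600000 mapped fragments. The 5 pluripotency markers summed to 2844 FPKM in BC1, the 5 mesoderm markers to 1861 FPKM in APLNR+, the 8 endothelial markers to 2662 FPKM in CD31+CD34+ and the 6 hematopoietic markers to 1434 FPKM in CD43+. These lists include APLNR, PECAM1 and SPN, genes of the sorted surface proteins. APLNR alone gave 1073 FPKM of the mesoderm sum, and ITGA2B 982 FPKM of the hematopoietic sum. The pluripotency markers still summed to 779 FPKM in APLNR+, with POU5F1 at 573 FPKM. The surface proteins that name the populations were not all at their highest RNA level in them: APLNR was at 1073 FPKM in its own population and SPN, the gene of CD43, at 92.4, and CD34 was higher in the HEPs (102) than in the HPCs (42.6), but PECAM1, the gene of CD31, was at 93.1 FPKM in the HEPs and 126 in the HPCs. The pan-leukocyte marker PTPRC was at most 0.0349 FPKM in any library. In such bulk libraries, fewer cells that express a gene and less RNA per cell cannot be told apart.

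A gene is said to have risen or fallen where log2(FPKM + 1) changed by at least 1 between successive libraries. From BC1 to APLNR+, 2 of the 9 genes past the filter rose (TGFB1 and ACVRL1) and none fell, against 9.15% risen and 9.32% fallen among all 17137 genes. From APLNR+ to CD31+CD34+, 6 of 9 rose (ACVRL1, ENG, TGFBR3, TGFBR2, TGFB1 and LTBP2) and none fell, against 13.0% risen and 11.4% fallen among all genes. From CD31+CD34+ to CD43+, only LTBP1 rose and 5 of 9 fell (ACVRL1, ENG, TGFBR3, LTBP2 and TGFBR1), against 7.63% and 13.5%. The median change of the 9 genes was 0.55, 1.80 and -1.21 on the log2 scale at the 3 transitions, beside 0.00, 0.01 and -0.08 for all genes.

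The peaks of these genes lay in different populations. None of the 9 was highest in BC1, where 27.7% of all genes had their highest level. TGFB3 and TGFBR1 were highest in APLNR+, where 22.7% of all genes peaked. The receptors and co-receptors TGFBR2, TGFBR3, ENG and ACVRL1, together with LTBP2, made 5 of 9 that peaked in CD31+CD34+, the peak of 25.5% of all genes. TGFB1 and LTBP1 peaked in CD43+, the peak of 24.0%.

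**Figure D1:**
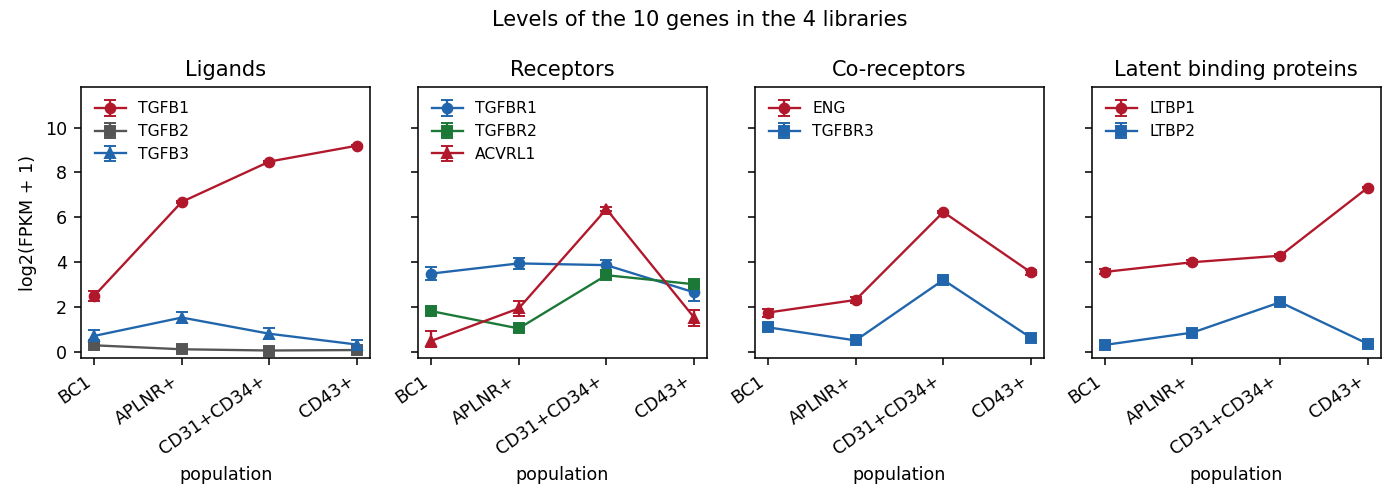
Level of each of the 10 genes as log2(FPKM + 1), on the y axis, in the 4 populations on the x axis, with 1 library each and bars for the 95% counting interval where it is wider than the symbol. TGFB1 climbs from 2.48 in BC1 to 9.19 in CD43+, ACVRL1 and ENG peak in CD31+CD34+, and LTBP1 stays near its BC1 level until CD43+.

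Among the ligands, TGFB1 held nearly all of the measured RNA and was higher at each step. TGFB1 (ENSG00000105329.9, chr19:41301587-41353911 on GRCh38, minus strand) encodes the ligand best known from blood cells and platelets. Its level was 4.59 FPKM in BC1, 102 FPKM in APLNR+ mesoderm, 357 FPKM in the HEPs and 585 FPKM in the HPCs. The first step was the steepest, with a level 22.2-fold higher in APLNR+ than in BC1 (18.6 to 26.8). CD31+CD34+ was a further 3.51-fold above APLNR+ (3.37 to 3.65). The last step, 1.64-fold (1.60 to 1.68) or 0.71 on the log2 scale, lay beyond counting error but under the change taken as a rise. Across the whole course CD43+ held 127-fold more than BC1 (107 to 153). Among the protein-coding genes detected in a library, TGFB1 moved from percentile 45.3 in BC1 to percentile 94.4, 98.8 and 99.1 in the later populations. Part of its exons, 215 of 3238 exonic bases or 6.64%, is shared with HNRNPUL1 on the opposite strand. HNRNPUL1 was nearly level, at 120, 150, 139 and 116 FPKM, and whether strand was used in counting is not given in the sources used here. Any part that the shared bases add to the TGFB1 level was not tested. Such a part would weigh most in BC1, where TGFB1 was lowest, and so on the folds over BC1.

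The bases before the RefSeq start of TGFB1 (GRCh38.p14, chr19:41353923-41354168, minus strand) are shown because this gene held most of the ligand RNA. The window of 250 bases before the start is 76.8% G or C, beside a median of 58.0% for the same window of 35114 RefSeq promoters. Capitals mark the letters GGGCGG (GC box) on either strand, which were found 6 times in the window. The 246 bases printed leave out 4 at the far end that lie in an annotated exon. At least 1 such match was present in 42.6% of all windows, so the match alone is common. The sequence reads 5′ to 3′ on the strand of the gene.
TGFB1: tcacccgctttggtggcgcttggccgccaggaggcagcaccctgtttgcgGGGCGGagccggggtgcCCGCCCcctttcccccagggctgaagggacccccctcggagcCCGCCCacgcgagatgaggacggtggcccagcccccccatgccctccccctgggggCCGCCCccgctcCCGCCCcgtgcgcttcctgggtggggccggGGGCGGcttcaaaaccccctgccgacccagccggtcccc

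TGFB2 and TGFB3 were low. TGFB2 (chr1:218346235-218444619, plus strand), a ligand with roles in heart and vessel development, was at 0.216 FPKM in BC1, 0.0751 in APLNR+ mesoderm, 0.0348 in the HEPs and 0.0494 in the HPCs. These values stand for only about 20.1, 7.54, 3.89 and 5.05 fragments. The level in BC1 was 2.87-fold above that in APLNR+ (1.13 to 7.06), and differences among the 3 derived populations were not detectable at this depth. The noncoding gene TGFB2-OT1 lies on the same strand and shares 1371 of the 5151 exonic bases of TGFB2.

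TGFB3 (chr14:75958099-75982991, minus strand), the third ligand of the family, was at 0.623 FPKM in BC1, 1.87 in APLNR+ mesoderm, 0.738 in the HEPs and 0.243 in the HPCs. APLNR+ stood above the others, 3.0-fold over BC1 (1.82 to 5.30) and 2.53-fold over CD31+CD34+ (1.63 to 4.15). BC1 and CD31+CD34+ could not be told apart by their counts, with a ratio of 1.18 (0.644 to 2.22). On the log2(FPKM + 1) scale the changes of TGFB3 were 0.82, -0.72 and -0.48, all under the change taken as a rise or fall. With a pseudocount of 0.1 in place of 1 they became 1.44, -1.23 and -1.29 and all 3 passed it.

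As a share of the summed FPKM of the 3 ligands, TGFB1 made up 84.6% in BC1 (79.2 to 88.9) and 98.1% in APLNR+ (97.7 to 98.5). In CD31+CD34+ and CD43+ the share was 99.78% and 99.95%. FPKM is a level per length of transcript, so the ligands can be set side by side within a library.

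The signalling receptors took separate courses. TGFBR1 (chr9:99104038-99154192, plus strand), the type I receptor of most cells, was at 10.2 FPKM in BC1, 14.3 in APLNR+ mesoderm, 13.5 in the HEPs and 5.26 in the HPCs. The first 3 populations lay close together. APLNR+ was 1.41-fold above BC1 (1.06 to 1.86), and APLNR+ and CD31+CD34+ did not differ beyond counting error (ratio 0.944, 0.739 to 1.22). CD43+ was 2.57-fold below CD31+CD34+ (1.83 to 3.72), a fall of 1.21 on the log2 scale.

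TGFBR2 (chr3:30606502-30694142, plus strand) encodes the type II receptor, which binds TGF-β1 and TGF-β3 directly. Its level was 2.51 FPKM in BC1, 1.05 in APLNR+ mesoderm, 9.64 in the HEPs and 7.04 in the HPCs. APLNR+ was the low point, 2.39-fold under BC1 (1.88 to 3.09). The step to CD31+CD34+ was 9.21-fold (7.49 to 11.5), or 2.38 on the log2 scale. Unlike the co-receptors, TGFBR2 was only 1.37-fold lower in CD43+ than in CD31+CD34+ (1.24 to 1.51) and so stayed 2.81-fold above BC1 (2.41 to 3.30). TGFBR2 was thus lowest in the population in which TGFB1 had first risen.

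ACVRL1 (chr12:51906908-51923361, plus strand), the endothelial type I receptor for TGF-β and for BMP9 and BMP10, had the widest range of the 10 genes apart from TGFB1. It was at 0.391 FPKM in BC1, 2.80 in APLNR+ mesoderm, 81.2 in the HEPs and 1.87 in the HPCs. One library stood far above the other three. ACVRL1 rose 7.15-fold from BC1 to APLNR+ (2.83 to 19.1) and 29-fold from there to CD31+CD34+ (21.6 to 40.3), and fell 43.4-fold to CD43+ (30.2 to 66.3). On the log2 scale these changes were 1.45, 4.44 and -4.84. Its rank went from percentile 37.9 in APLNR+ to 92.8 in CD31+CD34+ and back to 32.8 in CD43+. Whether CD43+ lay below APLNR+ could not be settled, since the ratio of 1.5 had an interval of 0.916 to 2.51 with the median transcript length and of 1.22 to 1.85 with the longest.

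**Figure D2:**
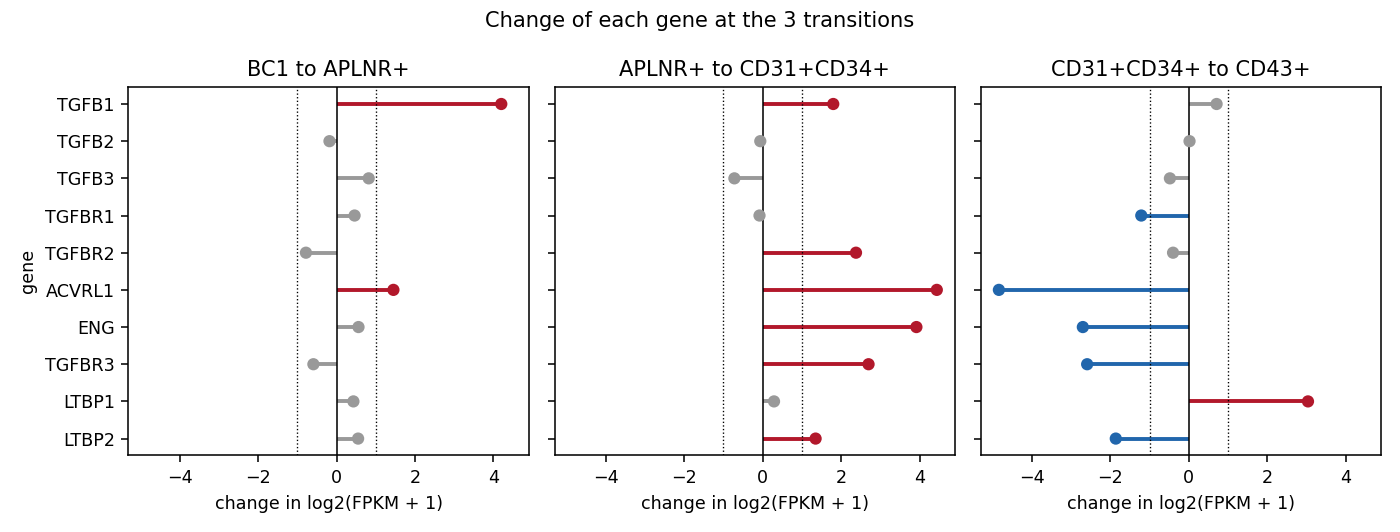
Change in log2(FPKM + 1) of each gene, on the x axis, between successive libraries, with 1 panel per transition and the genes on the y axis ordered by role. Dotted lines mark -1 and 1, red points lie at or above 1 and blue points at or below -1. ACVRL1, ENG and TGFBR3 move by 4.44, 3.92 and 2.70 at the middle transition and by -4.84, -2.70 and -2.59 at the last, while LTBP1 moves by 3.04 at the last.

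Setting the type I receptors ACVRL1 and TGFBR1 side by side, ACVRL1 made up 3.71% of their summed FPKM in BC1 (1.36 to 8.02) and 16.3% in APLNR+ (12.0 to 21.7). Other type I receptors, such as BMPR1A and ACVR1B, were not part of this sum. In CD31+CD34+ it made up 85.7% (83.3 to 87.9), so ACVRL1 RNA exceeded TGFBR1 RNA per length in this library and in no other. In CD43+ its share was 26.3% (17.6 to 36.9). As shares of approximate fragments the values were 6.15%, 24.6%, 91.3% and 38.5%. These fragments are computed from FPKM with 1 length per gene, so the order of the populations is nearly fixed and is no separate check.

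Both co-receptors peaked in CD31+CD34+. Endoglin (ENG, chr9:127815012-127854756, minus strand) is the CD105 antigen of endothelium, which presents ligand to ACVRL1. ENG was at 2.35 FPKM in BC1, 3.94 in APLNR+ mesoderm, 74.0 in the HEPs and 10.6 in the HPCs. The HEPs were 18.8-fold above APLNR+ (16.5 to 21.5), and CD43+ was 7.0-fold below the HEPs (6.44 to 7.62). ENG did not return to its early level, and CD43+ stayed 2.68-fold above APLNR+ (2.31 to 3.14) and 4.51-fold above BC1 (3.72 to 5.48). Its percentile among detected protein-coding genes was 35.5, 42.8, 92.0 and 59.3 in the order of differentiation. The antisense gene AL162586.1 shares 313 of the 3935 exonic bases of ENG, or 7.95%, and was at most 1.65 FPKM.

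TGFBR3 (chr1:91680343-91906335, minus strand) encodes betaglycan, which helps TGF-β2 to reach TGFBR2 and also binds inhibin. It was at 1.12 FPKM in BC1, 0.413 in APLNR+ mesoderm, 8.19 in the HEPs and 0.531 in the HPCs. The rise into CD31+CD34+ was 19.8-fold (13.9 to 29.3), close to that of ENG, but the fall out of it was 15.4-fold (11.2 to 21.5). APLNR+ and CD43+ did not differ beyond counting error, with a ratio of 1.28 (0.798 to 2.12), and both lay below BC1. Where ENG was higher in CD43+ than in BC1, TGFBR3 was 2.12-fold lower (1.43 to 3.14).

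ENG made up 67.7% of the summed FPKM of both co-receptors in BC1 (61.1 to 73.7), 90.5% in APLNR+ (86.8 to 93.5), 90.0% in CD31+CD34+ (89.3 to 90.7) and 95.2% in CD43+ (93.6 to 96.5). The share was thus level across the transition at which both genes rose.

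Windows of 250 bases before the RefSeq starts of ENG and TGFBR3 were searched in GRCh38.p14 because both co-receptors rose at the same transition. GENCODE places earlier starts for both genes, so 98 bases of the ENG window and 128 of the TGFBR3 window lie in annotated exons. The bases printed are those outside these exons, 152 for ENG (chr9:127854757-127854908, minus strand) and 122 for TGFBR3 (chr1:91886280-91886401, minus strand). In ENG, capitals mark AGGAAG on either strand, letters bound by ETS factors, of which 2 matches were found in the window and 1 in the printed bases. In TGFBR3, no AGGAAG or CCGGAA was found, and capitals mark the GC box letters GGGCGG, with 2 matches in the window and 1 in the printed bases. Over all 35114 windows, AGGAAG was present in 28.7% and CCGGAA in 14.5%. The letters AGATAA, which GATA factors bind, were present on either strand in 9.17% of windows, TGTGGT, which RUNX factors bind, in 11% and CAGACA, which SMADs bind, in 13.6%, and these were found in neither gene. The window of ENG was 69.6% G or C and that of TGFBR3 73.6%. These matches describe letters and not bound sites.
ENG: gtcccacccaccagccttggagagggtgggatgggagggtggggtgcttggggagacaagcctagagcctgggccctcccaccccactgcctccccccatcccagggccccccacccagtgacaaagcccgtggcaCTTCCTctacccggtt
TGFBR3: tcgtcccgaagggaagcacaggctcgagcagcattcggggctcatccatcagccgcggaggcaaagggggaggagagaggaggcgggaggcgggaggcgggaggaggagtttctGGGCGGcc

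**Figure D3:**
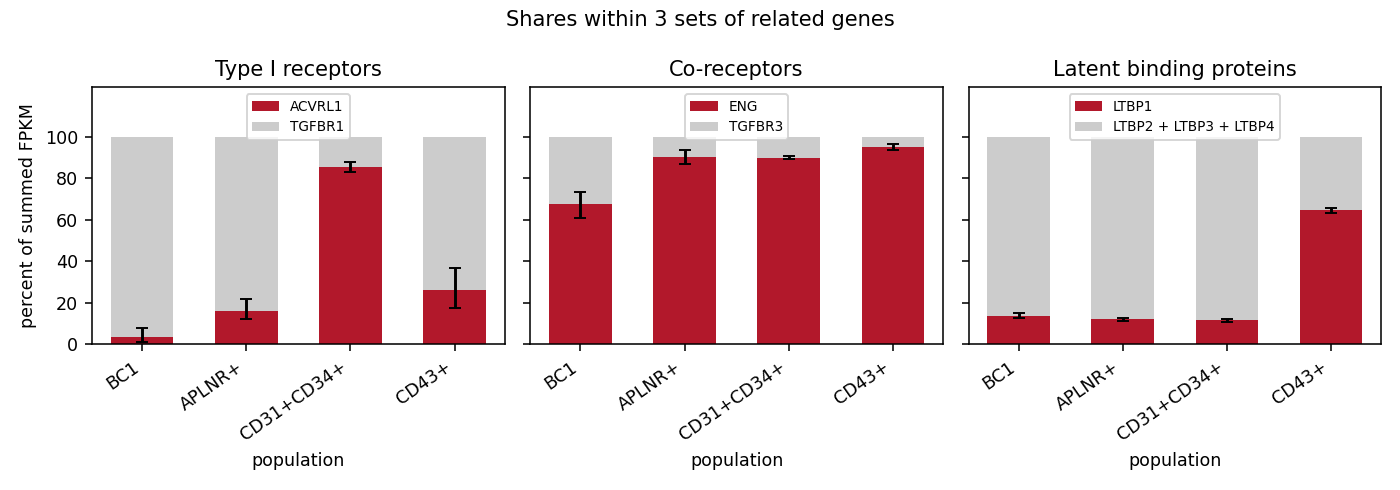
Percent of summed FPKM, on the y axis, held by ACVRL1 against TGFBR1, by ENG against TGFBR3 and by LTBP1 against LTBP2, LTBP3 and LTBP4, in the 4 populations on the x axis. Red bars show the named gene with its 95% counting interval and grey bars the rest. ACVRL1 holds 85.7% in CD31+CD34+ and LTBP1 holds 64.7% in CD43+, while ENG holds 90.0% to 95.2% in the derived populations.

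The binding proteins diverged at the last step. LTBP1 (chr2:32946972-33399509, plus strand) encodes a latent TGF-β binding protein that anchors the small latent complex in the matrix. It was at 10.8 FPKM in BC1, 14.9 in APLNR+ mesoderm, 18.5 in the HEPs and 159 in the HPCs. The early steps were small, 1.38-fold (1.24 to 1.54) and 1.24-fold (1.13 to 1.36). LTBP1 then rose 8.62-fold into CD43+ (8.10 to 9.18), or 3.04 on the log2 scale, and from percentile 69.5 to percentile 96.7.

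LTBP2 (chr14:74498170-74612378, minus strand) belongs to the same family but does not bind TGF-β. It was at 0.229 FPKM in BC1, 0.802 in APLNR+ mesoderm, 3.61 in the HEPs and 0.270 in the HPCs. Its course resembled that of the co-receptors, with a level 4.50-fold higher in CD31+CD34+ than in APLNR+ (3.57 to 5.68) and 13.4-fold lower again in CD43+ (9.31 to 20.0). BC1 and CD43+ did not differ beyond counting error (ratio 1.18, 0.670 to 2.10).

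The other family members LTBP3 and LTBP4 moved less. LTBP3 was at 11.1, 8.32, 13.9 and 15.8 FPKM, and LTBP4, the most abundant of the family in the first 3 libraries, at 55.5, 101, 125 and 70.6 FPKM. The share of LTBP1 in the 4 genes was 13.9% in BC1, 12.0% in APLNR+ and 11.5% in CD31+CD34+, and 64.7% in CD43+ (63.5 to 66.0). As a share of approximate fragments it was 34.5%, 34.3%, 30.6% and 85.6%. This share depends on the median annotated length taken for each gene. In BC1, about 549 fragments stood for 55.5 FPKM of LTBP4 and about 556 for 10.8 FPKM of LTBP1.

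Markers of other cell types moved with these genes. The 8 endothelial markers summed to 51.4, 81.2, 2662 and 315 FPKM in the order of differentiation, and all 8 reached 1 FPKM in both CD31+CD34+ and CD43+. The sum was led by PLVAP, at 1450 FPKM in the HEPs, and ENG, ACVRL1 and TGFBR3 were highest in the same library. PECAM1 and EMCN did not fall at the last step, from 93.1 to 126 FPKM and from 3.44 to 4.36 FPKM. The 8 markers of stroma and smooth muscle summed to 36.8, 47.0, 253 and 65.8 FPKM. Of these, 5 reached 1 FPKM in CD31+CD34+, while DCN was listed at 0 and MYH11 was at 0.0221 FPKM there. COL1A1 (184 FPKM) and ACTA2 (48.3 FPKM) held most of the sum in CD31+CD34+. From APLNR+ to CD31+CD34+ these genes and COL3A1 rose, but PDGFRA fell from 14.3 to 4.96 FPKM. PDGFRB was nearly level, at 5.50 and 6.69 FPKM, and LUM, DCN and MYH11 were below 1 FPKM in both libraries. The 6 megakaryocyte and platelet markers summed to 3.44, 0.815, 34.1 and 2607 FPKM, and all 6 reached 1 FPKM in CD43+, led by PF4 at 1674 FPKM. LTBP1 rose with this list. The 6 erythroid markers went from 46.7 to 10819 FPKM at the same step, and the 6 macrophage and granulocyte markers from 14.4 to 43.3 FPKM, with MPO at 0.0790 FPKM in CD43+. The part of these cell types in the levels of the 10 genes was not tested.

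Around the 10 genes, 78 further genes of the pathway were followed in 6 lists that share no gene with them, and 71 passed the filter. Into APLNR+ mesoderm 24 rose (33.8%, beside 9.15% of all genes) and 7 fell (9.86%, beside 9.32%). Into the HEPs 25 rose (35.2%, beside 13.0%) and 11 fell (15.5%, beside 11.4%). Into the HPCs 7 rose (9.86%, beside 7.63%) and 39 fell (54.9%, beside 13.5%). The falls at the first 2 transitions and the rises at the last were thus near the shares of all genes. The median change of the 71 was 0.34, 0.40 and -1.19 on the log2 scale. At the last transition 5 of the 9 genes past the filter and 39 of the 71 pathway genes fell.

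Of 20 ligand storage and activation genes, 9 rose (45.0%, beside 9.15% of all genes) and 2 fell (10%, beside 9.32%) into APLNR+. Into CD31+CD34+ 8 rose (40.0%, beside 13.0%) and 3 fell (15.0%, beside 11.4%). Into CD43+ 3 rose (15.0%, beside 7.63%) and 11 fell (55.0%, beside 13.5%). The 3 that rose last were THBS1, ITGB3 and NRROS. THBS1, a thrombospondin that can release active TGF-β1 and is stored in platelets, was at 8.79, 4.22, 1.47 and 579 FPKM. ITGB3, the β3 integrin chain, which is also on the megakaryocyte list, was at 0.0753, 0.0673, 6.68 and 501 FPKM. NRROS, a membrane protein that holds latent TGF-β1 on myeloid cells, was at 1.87, 0.263, 39.9 and 104 FPKM. Of the 20 genes, 6 were highest in CD43+, where 24.0% of all genes peaked, and 11 in CD31+CD34+, where 25.5% did. FBN2, a fibrillin of the matrix to which latent complexes attach, was instead highest in APLNR+, at 6.61, 176, 34.7 and 2.69 FPKM. The protease gene FURIN, whose product cuts the propeptide, was highest in CD31+CD34+, at 18.7, 48.7, 183 and 79.6 FPKM, and was added here for its role after its values were seen.

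Of 11 SMADs and partners, 3 rose (27.3%, beside 9.15% of all genes) and none fell (beside 9.32%) into APLNR+. Into CD31+CD34+ 1 rose (9.09%, beside 13.0%) and 3 fell (27.3%, beside 11.4%). Into CD43+ 3 fell (27.3%, beside 13.5%) and none rose (beside 7.63%). SMAD3, which carries the TGFBR1 signal, was at 11.1, 45.7, 20.6 and 9.90 FPKM, and SMAD9 of the BMP branch at 0.197, 6.58, 2.48 and 0.183 FPKM. Both were highest in APLNR+. CD109, a surface protein that binds TGF-β and limits its signal, was at 0.789, 0.424, 14.5 and 4.04 FPKM. TGIF1, a repressor of SMAD2 and SMAD3 targets, was at 126, 72.3, 23.4 and 12.8 FPKM, lower at each step.

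Of 12 inhibitors, 5 rose (41.7%, beside 9.15% of all genes) and none fell (beside 9.32%) into APLNR+. Into CD31+CD34+ 3 rose (25%, beside 13.0%) and 2 fell (16.7%, beside 11.4%). Into CD43+ 1 rose (8.33%, beside 7.63%) and 7 fell (58.3%, beside 13.5%). SMAD6, which blocks mainly the SMAD1 and SMAD5 branch, was at 3.21, 206, 486 and 24.2 FPKM. SMAD7, which blocks both branches, was at 13.0, 46.0, 32.2 and 1.27 FPKM. Both fell into CD43+, with changes of -4.27 and -3.87 on the log2 scale. BAMBI, a receptor without a kinase, was at 14.3, 145, 87.5 and 101 FPKM and did not fall there. BGN, a matrix proteoglycan that binds TGF-β, was at 2.40, 2.90, 77.9 and 3.06 FPKM.

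The next list held 7 other receptors and ligands of the BMP and activin branches, which include partners of ACVRL1 and ENG. At each of the first 2 transitions 1 rose and 1 fell (14.3% each). Among all genes 9.15% rose and 9.32% fell at the first, and 13.0% and 11.4% at the second. At the last transition none rose (beside 7.63%) and 3 fell (42.9%, beside 13.5%). BMPR2, the type II partner of ACVRL1 for BMP9 and BMP10, was at 2.66, 11.5, 11.2 and 4.05 FPKM. It rose into APLNR+, as ACVRL1 also did. ACVR2A, another type II receptor, was at 3.06, 6.0, 2.32 and 1.40 FPKM, and the BMP type I receptor gene BMPR1A at 34.2, 12.9, 11.9 and 5.07 FPKM. The ligand gene BMP10 was listed at 0 in BC1 and was at 0.282, 3.63 and 0.142 FPKM afterwards, so its highest level was in the same library as that of its receptor. GDF2, which encodes BMP9, was at 0.0299 FPKM in BC1, about 1 fragment, and listed at 0 in the others.

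Of 14 SMAD2 and SMAD3 targets, 4 rose (28.6%, beside 9.15% of all genes) and 2 fell (14.3%, beside 9.32%) into APLNR+. Into CD31+CD34+ 7 rose (50.0%, beside 13.0%) and 2 fell (14.3%, beside 11.4%). Into CD43+ 2 rose (14.3%, beside 7.63%) and 10 fell (71.4%, beside 13.5%). The collagen gene COL1A2 was at 20.9, 65.0, 207 and 16.3 FPKM and the smooth muscle actin gene ACTA2 at 3.09, 2.19, 48.3 and 30.1 FPKM. TAGLN, which encodes transgelin, was at 129, 117, 74.7 and 3.52 FPKM. SNAI2, a repressor of epithelial genes, was at 1.08, 32.8, 14.0 and 2.04 FPKM. COL1A1 and ACTA2 are also on the stroma and smooth muscle list.

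Of 7 SMAD1 and SMAD5 targets, 2 rose and 2 fell (28.6% each, beside 9.15% and 9.32% of all genes) into APLNR+. Into CD31+CD34+ 5 rose (71.4%, beside 13.0%) and none fell (beside 11.4%). Into CD43+ 1 rose (14.3%, beside 7.63%) and 5 fell (71.4%, beside 13.5%). The median changes of this list were 0.33, 1.88 and -2.24. ID1, a classic target of ACVRL1, was at 108, 49.5, 636 and 18.7 FPKM. ID3 was at 35.5, 42.4, 159 and 3.30 FPKM. Both encode inhibitors of helix-loop-helix factors. HEY1, a target shared with Notch, was at 0.849, 1.32, 6.70 and 0.566 FPKM. The connexin gene GJA4 was the exception at the last step, at 6.66, 1.30, 49.4 and 151 FPKM. The other 6 targets were highest in CD31+CD34+, where ACVRL1 and ENG were also highest and where 25.5% of all genes peaked. Among these 6, ID4 and HEY2 changed by only 0.11 and 0.59 on the log2 scale from APLNR+ to CD31+CD34+. Both changes lay under the change taken as a rise. With 1 library per population, these peaks are a description of 4 levels per gene. A link between ACVRL1 or ENG and these targets was not tested.

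**Figure D4:**
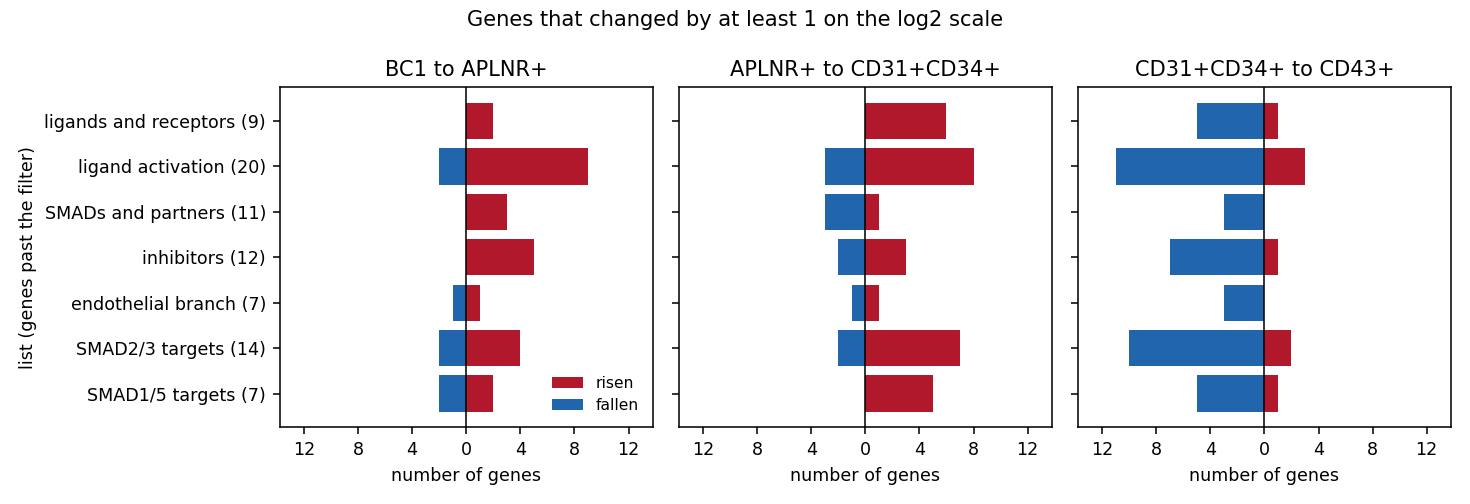
Number of genes that rose (red, right of 0) or fell (blue, left of 0) by at least 1 in log2(FPKM + 1), on the x axis, for the ligands and receptors described here and 6 pathway lists on the y axis, with the genes past the filter in brackets and 1 panel per transition. At the last transition 5 of 9 ligand, receptor and binding protein genes and 39 of 71 pathway genes fell, beside 13.5% of all genes.

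The genes whose course was most like that of each member were found from the root mean squared difference of log2(FPKM + 1), centred per gene, over the 4 libraries, among 13909 protein-coding genes. This was done for the 6 members with a range of at least 2. The difference is not scaled to a gene's range. The number of genes within 0.5 fell steadily as the range of the member rose, from 2.38 for TGFBR2 to 6.71 for TGFB1. These numbers therefore do not show how rare the shape of a course is. For TGFB1, ZEB2 differed by 0.34, SLC16A3 by 0.47 and GATA2 by 0.65, and 2 genes lay within 0.5. ACVRL1 had 4 genes within 0.5, of which SOX7 (0.35), AC105001.2 (0.43) and CXorf36 (0.47) were the nearest. ENG had 38, led by EXOC3L1 (0.17), AFAP1L1 (0.19) and the Notch ligand gene DLL4 (0.19). DLL4 was at 0.131, 0.420, 18.0 and 1.77 FPKM.

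The remaining members, TGFBR2, TGFBR3 and LTBP1, had narrower ranges and more genes within 0.5. TGFBR2 had 472 genes within 0.5, led by ZDHHC21 (0.06), SLITRK4 (0.11) and COTL1 (0.11). TGFBR3 had 172, led by the BMP ligand gene BMP6 (0.07), TPD52L1 (0.10) and SPAAR (0.15). BMP6 was at 0.947, 0.148, 7.30 and 0.278 FPKM. LTBP1 had 106, led by HRC (0.09), CD55 (0.15) and APOBR (0.15). With 4 libraries, likeness of course is easily reached, and these distances are descriptions.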

How the data were processed

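Total RNA of 4 human samples was extracted with Trizol and prepared with the Illumina TruSeq RNA kit. The authors deposited 1 table of FPKM values per gene. The submitters' processing notes list BWA, Bowtie, RSEM and hg19 without roles, and whether strand was used is not given in the sources used here. Of the table's identifiers, 55647 matched GENCODE release 29 with the same version, and 99.8% of these rows had its GRCh38 positions, so positions are GRCh38, counted from 1. Rows of 1 gene were summed (90 genes, none of the 10).

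Levels were compared as log2(FPKM + 1) for genes that reached 1 FPKM in any library, and a change of at least 1 was counted. FPKM are not counts, so no count model was run. Depth was fitted to the steps of low FPKM values. Between 83.7% and 85.3% of the 1500 values used per library fell within 0.1 of a whole fragment, and the fit was tested on simulated data. Approximate fragments used the median length of a gene's protein-coding transcripts and gave exact Clopper-Pearson 95% intervals (scipy 1.17.1), with 3 fragments as floor. These cover counting error only.

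The 10 genes and all lists were chosen with earlier results of these data known. All members were named, with up to 4 genes per pathway list by largest change (and those completing a pair or family), and the 3 nearest courses per member. Promoter sequences come from RefSeq (GRCh38.p14), with 9 of the 10 genes matched.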

Additional observations from a re-analysis of the deposited data

How the results depend on the processing

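With a pseudocount of 0.1, 4 members rose and 2 fell from BC1 to APLNR+, and 1 fell from APLNR+ to CD31+CD34+. The number that fell from CD31+CD34+ to CD43+ was then 6 instead of 5. With a threshold of 2, 1 member rose from BC1 to APLNR+ and 3 fell from CD31+CD34+ to CD43+. At that threshold 10, 12 and 4 pathway genes rose and 0, 3 and 20 fell at the 3 transitions. Shares of all genes were taken only with a pseudocount of 1 and a threshold of 1. The counts at other settings therefore cannot be read against all genes. The larger numbers at the lower pseudocount come from genes near or below 1 FPKM. From BC1 to APLNR+, TGFBR2 and TGFBR3 changed by -1.18 and -1.25, and TGFB3 and LTBP2 by 1.44 and 1.45. The counts of members and pathway genes stayed within 1.5 times of those reported with no filter, with a filter of 5 FPKM, with values rescaled to an equal total and with median-of-ratios scaling. The log2 change of no member changed sign with the other pseudocount or either scaling; signs of single pathway genes were not compared. Rescaling moved the median change of all genes at the last transition from -0.08 to -0.19, and TGFB1 from 0.71 to 0.59. Median-of-ratios scaling gave 0.81 for TGFB1. Intervals computed with the longest transcript gave the same side of 1 for every successive pair of libraries.

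No paired analysis was possible because each population had 1 library, and for the same reason no replicate was left out. Depth limits TGFB2 most, which had at most about 20.1 fragments in a library.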

Other observations

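TMEM91, which overlaps TGFB1 on the opposite strand without sharing exonic bases, was at 3.41, 4.66, 17.3 and 20.9 FPKM in the order of differentiation, and CCDC97, also on the opposite strand, was at 16.7, 17.7, 8.33 and 9.41 FPKM. IFT43, which overlaps TGFB3 in the same way, was at 17.4, 20.5, 11 and 4.70 FPKM. Among integrin chains that bind the latent complex, ITGB5 was at 189, 343, 35.8 and 27.2 FPKM, so its highest and lowest libraries were APLNR+ and CD43+. ITGB8 was at most 0.541 FPKM, and ITGB6 was listed at 0 in all 4 libraries. LRRC32, which encodes the GARP protein that holds latent TGF-β1 on platelets and regulatory T cells, was at 0.639, 10.8, 18.9 and 21.5 FPKM.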
